A study of Caenorhabditis elegans with 2 samples.

Results

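The X chromosome of Caenorhabditis elegans carried 770 of the 4940 peaks listed for the chromatin remodeller CHD-3, and the other 4170 lay on the 5 autosomes. These 770 regions were taken by chromosome alone, without regard to their width or score. The peaks come from chromatin immunoprecipitation and sequencing (ChIP-seq) of hermaphrodites of strain fem-2(b245), genotype fem-2(b245)III, at the stage given as young adult with a germline and grown at 20 °C. The growth protocol instead describes harvested gravid adults, and no age in days is stated. The series names 1 ChIP library, made with an affinity-purified rabbit antibody (SDQ3849) raised against a stretch of CHD-3, and 1 input DNA library of the same strain and stage. Both carry the fem-2 mutation, so there is no wild-type group, and no value of the input library was used here. Both libraries are labelled replicate 2, and no other replicate was analysed here. With 1 list and no replicate beside it, the values on X are described beside those of each autosome and none of the differences was tested.

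CHD-3 is a C. elegans member of the Mi-2 family of ATPases, which move nucleosomes and work with histone deacetylases in NuRD-type complexes. LET-418 is its close relative in the worm. The gene chd-3 is itself annotated on X, and let-418 on V. FEM-2 is a protein phosphatase of the sex determination pathway that promotes male fates and sperm. In hermaphrodites X is present in as many copies as each autosome. In somatic cells the dosage compensation complex, which is related to condensin, binds along both X chromosomes and lowers their transcription. In the germline X is largely silent for most of development and bears repressive histone methylation laid down by a complex of some of the MES proteins. Whole adults mix somatic and germline nuclei, so a peak held by few cells and a weak peak held by many cannot be told apart.

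X was sparser in CHD-3 peaks than the autosomes as a set and denser than chromosome V. There were 43.5 peaks per Mb of X, against 50.6 over the autosomes together, a ratio of 0.86. Single autosomes ran from 41.04 per Mb on V to 61.3 on IV, and chromosome II had 44.2, so the value of X was the second lowest of the 6. X held 15.6% of the list (95% exact binomial interval 14.6 to 16.6%) and 17.7% of the summed spans. Each span was taken from base 1 to the last base of the last peak, which gave X 17.7 Mb. Peaks covered 432 kb of X, or 2.44% of its span, against 2.19% on V, 2.44% on II and 2.96% on IV, the highest of the autosomes. X made up 16.6% of all bases inside peaks, a share between those of its peaks and of its span. The intervals treat peaks as independent and cover counting error only, whereas neighbouring peaks often belong together.

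**Figure D1:**
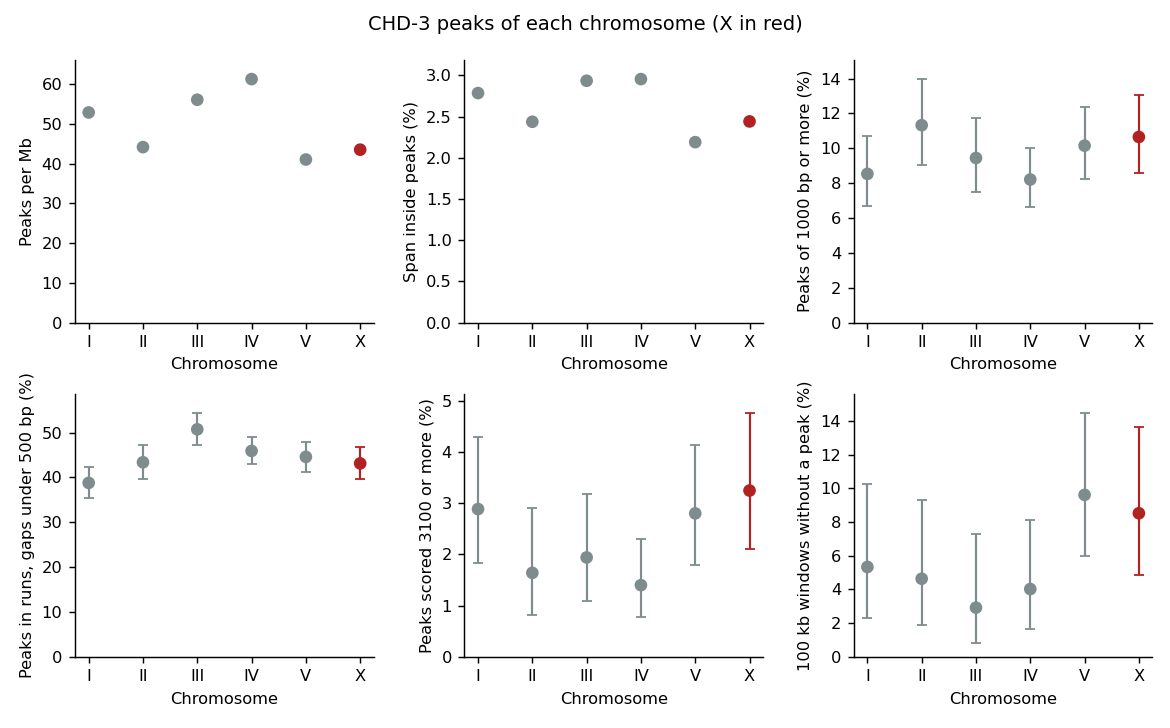
Peaks per Mb, percent of the span inside peaks, and 4 shares in percent, for chromosomes I to V (grey) and X (red). Bars are 95% exact binomial intervals of the shares, and the first 2 panels have no error because there is 1 list. X lies between the lowest and the highest autosome in each panel except the share of peaks scored 3100 or more, where its 3.25% is above the 2.89% of chromosome I and the intervals overlap.

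In typical width and score X lay inside the range of the 5 autosomes. The median X peak was 348 bp wide, between 314 bp on I and 355 bp on II, and the widest 10% of X peaks exceeded 1037 bp. Peaks of 1000 bp or more, called broad here, numbered 82 on X, or 10.6% (8.56 to 13.05%), against 8.21% on IV and 11.3% on II at the ends of the autosomal range. X peaks among the highest 25% of scores in the whole list numbered 201, or 26.1% (23.03 to 29.4%), with 22.8% on III and 29.7% on II as the extremes. The score is the authors' own value from the peak caller on a scale the file does not name, and it serves here only to rank peaks. None of these shares set X apart from all autosomes.

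On a few measures of its wide and high-scoring peaks X lay outside the autosomal range. Broad peaks made up 39.9% of the covered length of X, against 32.1% on IV and 38.2% on I. Peaks of 2000 bp or more numbered 27, or 3.51% of X peaks, against at most 24 on an autosome and at most 2.98%, on III, a value inside the interval of X (2.32 to 5.06%). These measures were picked out after their values on all chromosomes had been seen, from many on which X lay inside the range. Both include the largest run of neighbouring X peaks, described below, which held 10 of the 82 broad peaks. Of the 27 peaks of 2000 bp or more, those of 2616, 3021, 4568, 4299, 4116 and 2231 bp lay in that run. The run also held 29.7 kb of the 432 kb covered on X. Neither measure was recomputed without that run, so a place of X outside the range apart from it is not shown. The lower limit of the widest 10% of peaks was 1037 bp on X and 1069 bp on II. The highest 10% of scores held 10.6% of X peaks and 10.7% of those on V, so X was inside the range in both. At the top of the score scale, of the X peaks 25 scored 3100 or more, and 24 of these shared the value 3100 exactly, a tie that hides any order among them. They were 3.25% of X peaks (2.11 to 4.76%), against 2.89% on I, 2.80% on V, 1.94% on III, 1.64% on II and 1.40% on IV. The intervals of X and each autosome overlapped. At a lower bar of 2000 the share on X was 4.29% and the highest autosome, V, had 4.32%, so X no longer stood first. At 3100 itself X had 1 peak more than V, which had 24.

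The peaks at the top of the scale on X were almost all broad and were spread along the chromosome. Their widths ran from 952 to 6281 bp with a median of 2882 bp, and only the peak from 142775 to 143726 was narrower than 1000 bp. Being broad at that score was not particular to X: 95.5% of such peaks on the autosomes were broad, with a median width of 2719 bp. The first 50% of the span held 10 of the 25. The highest number, 3114, belonged to a peak of 1100 bp from 16100075 to 16101174. Its place above the tied peaks is uncertain, because 3100 may be a limit of the scale. Next by width came 5 peaks tied at 3100. They ran from 16929703 to 16935983 (6281 bp), from 2057747 to 2063919 (6173 bp), from 289823 to 295302 (5480 bp), from 14384629 to 14389739 (5111 bp) and from 109473 to 114313 (4841 bp). The first 4 of these 5 were also the only X peaks of at least 5000 bp, where chromosome I had 6 such peaks and its widest reached 11565 bp. X therefore had no peak as wide as the widest of I, II, III and V, and among the autosomes only IV had a narrower maximum, 5704 bp.

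The other peaks in the 10 highest were 10360980 to 10365327 (4348 bp), 9184907 to 9189110 (4204 bp), 16936049 to 16940124 (4076 bp) and 15807414 to 15811296 (3883 bp). Several of the top-scoring peaks adjoined each other. Both members of 3 neighbouring pairs scored 3100. The pair at 10360980 was separated by 2 bp and spanned 8.14 kb as a unit, with 61.5 kb free of peaks on its left and 26.6 kb on its right. The pair at 16929703 was 65 bp apart, and the pair at 11785605 was 102 bp apart. Others stood alone: the peak from 14908011 to 14909434 had its nearest neighbours 83.1 kb to the left and 132.3 kb to the right. High score and isolation thus occurred together on X in some places, and high score and crowding in others.

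Wide X peaks had high scores. Over the 770 peaks Spearman's rho was 0.91, above the single autosomes, which ran from 0.87 on III to 0.89 on II. The correlation is across peaks of 1 library, which share its depth, and a score that gathers reads over the whole peak would rise with width. Whether the deposited score is of that kind is not stated and was not tested. By score, the median width was 205 bp in the lowest 25% of the list's scores (185 X peaks), 281 bp in the next 25% (197), 439 bp in the next (187) and 877 bp in the highest (201). The matching autosomal medians were 203, 277, 408.5 and 839 bp. All 82 broad X peaks lay in the highest of these groups, and the lowest score among them was 322. On the autosomes 387 of 392 broad peaks did so, with a lowest score of 84.8.

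**Figure D2:**
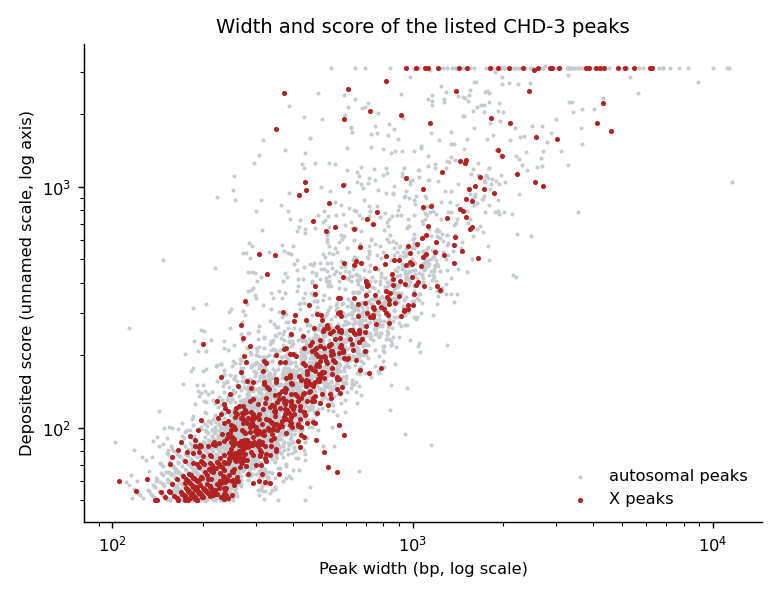
Width in bp and deposited score of each listed peak, both on log axes, for the 770 X peaks (red) and the 4170 autosomal peaks (grey). The X peaks follow the autosomal cloud, with a row of 24 peaks at the tied score of 3100, and 2 narrow peaks under 400 bp that score above 1000.

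A few X peaks broke this relation. Of 445 X peaks under 400 bp, 2 scored above 1000. One was the first peak of the chromosome, from base 1 to 372, with a score of 2457. The other ran from 168595 to 168946 (352 bp, score 1726). The next of that width scored 526, from 1195231 to 1195539. On the autosomes narrow peaks of such score numbered 4 on IV and 2 on V, while on I, II and III there was none. Every chromosome start lay inside a peak, and that of X had the second highest score of the 6, after the 3100 of chromosome I. The last X peak, from 17692722 to 17692977, scored only 59.7.

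On X 332 of the 770 peaks, or 43.1% (39.6 to 46.7%), had another peak less than 500 bp away, and such chains of peaks are called runs here. The autosomes ran from 38.8% on I to 50.7% on III. There were 125 runs on X, of which 86 were pairs, 22 joined 3 peaks, 9 joined 4 and 8 joined 5 or more. The limit of 500 bp did not fall in a natural break: 18 gaps on X measured from 400 to under 500 bp and 14 from 500 to under 600 bp. Many gaps were far shorter, with 67 of the 769 under 50 bp and 21 under 10 bp. No listed peaks overlapped. Peaks in runs were wider than peaks outside them, with medians of 442.5 and 301.5 bp, and had higher median scores, 156 and 102.5. The same medians on the autosomes were 357 and 307.5 bp, and 130.02 and 107.6 in score. For peaks in runs, single autosomes had median widths from 340.5 bp on IV to 426 bp on II. Their median scores ran from 118 on I to 162 on II, so X was above them in width but not in score.

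The share of broad peaks that sat in runs was numerically highest on X. Of the 82 broad peaks 55, or 67.1% (55.8 to 77.1%), were in a run, against 65.8% on III, 56.8% on IV, 56.6% on II, 51.5% on I and 49.4% on V. Without the largest run, which alone held 10 broad peaks, the share on X was 62.5%, below the 65.8% of III and so inside the autosomal range. With the run of most peaks left out on every chromosome, the autosomes had from 45% on V to 58.3% on III, and X was above them. Whether X stood first therefore depended on which runs were left out. Among the 27 X peaks of 2000 bp or more, 19 were in runs, or 70.4% (49.8 to 86.2%), where the highest autosomal share was 58.3%, on IV. Among the 50% of the list with the highest scores, taken before runs were built, 40.7% of X peaks were in runs, against 28.3 to 38.8% on the autosomes. All 14 peaks of the largest run, each scored 116 or more, were in that 50%. Neither this share nor that of the peaks of 2000 bp or more was recomputed without the largest run. These comparisons of broad and high-scoring peaks were chosen after their values had been seen, and the intervals of X reach into the values of the autosomes.

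The largest run on X, from 4026012 to 4056447, joined 14 peaks over 30.4 kb, and 97.6% of its length was inside peaks. Among the autosomes only III had a longer run, of 37.8 kb and 20 peaks. The gaps inside it measured 2 to 208 bp, so it reads as an almost unbroken block. The strongest part at its left edge was a peak of 2616 bp from 4026651 with a score of 3100, beside a peak of 590 bp scored 1914. To their right, left of the centre, lay scores of 543 and 482 in peaks of 1466 and 1379 bp. Right of these, 3 adjoining peaks of 4568, 4299 and 4116 bp, from 4040696 to 4053734, scored 1708, 2218 and 1837. A narrow peak of 349 bp scored 116 before the last, of 2231 bp and 1130. The run held 29.7 kb of peak sequence, 6.88% of all covered bases of X in 1.82% of its peaks.

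The next runs were of unlike kinds. The run from 17441973 to 17447665 joined 10 peaks within 5.69 kb, but none was broad, with widths of 218 to 917 bp and scores of 58.8 to 289.6. The run from 5045425 to 5054569 joined 8 peaks over 9.14 kb, 4 of them broad, and 96.6% of it was inside peaks. Its scores ran from 80.9 to 1839, and the 4 broad peaks scored 1278 or more. A peak of 1026 bp scored 3100 followed it after 1668 bp. Between 1882414 and 1887997 lay 6 joined peaks in 5.58 kb, and their median score was 206. Then came 4 runs of 5 peaks each, of which that from 1136180 to 1140785 had the highest median score, 371, and was 95.2% inside peaks. Those at 8019725 to 8022998 and 2992671 to 2995144 had medians of 131 and 96.7. The run from 15398374 to 15400721 was the weakest, with a median score of 91.6 and 61.03% inside peaks. Of the runs with 4 peaks, those from 4142042 to 4146411 and from 11975190 to 11978662 were the longest, at 4.37 and 3.47 kb.

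**Figure D3:**
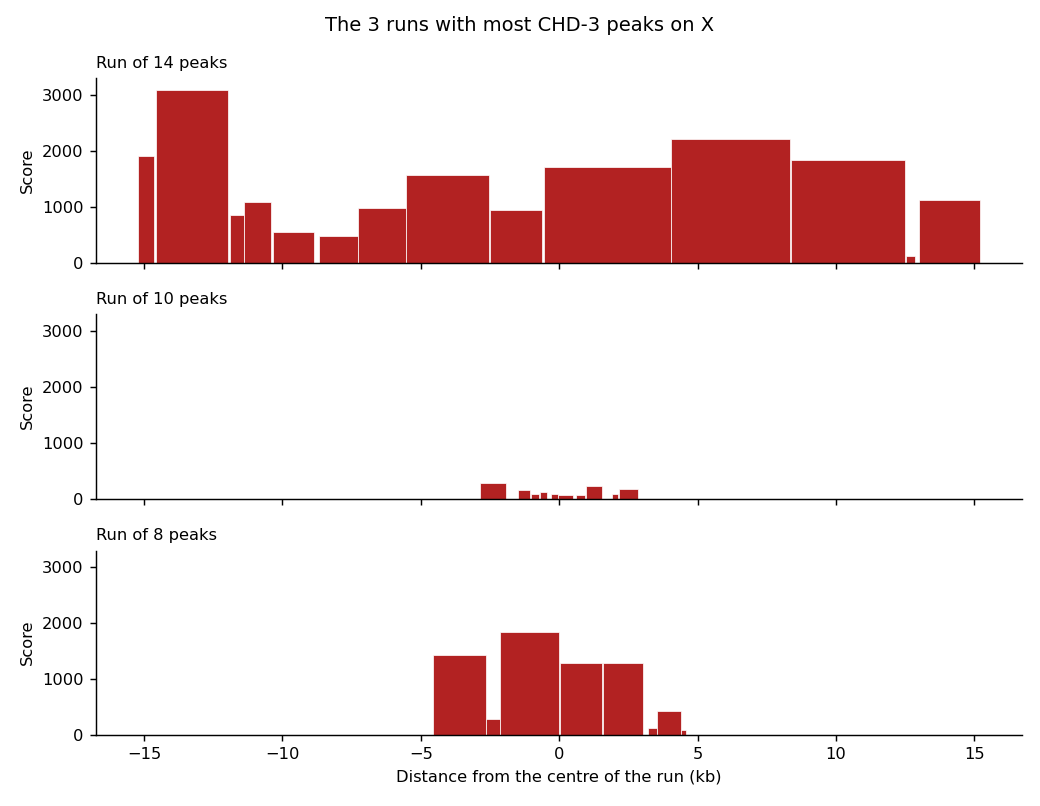
The 3 runs with most peaks on X, drawn as bars over the distance in kb from the centre of each run, with the height of a bar as the deposited score. The run of 14 peaks spans 30.4 kb with scores from 116 to 3100, the run of 10 peaks spans 5.69 kb with no score above 289.6, and the run of 8 peaks spans 9.14 kb.

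Along X the peaks were more numerous near the left end and least numerous just right of the midpoint. In bins of 1 Mb the number ranged from 29, between 9 and 10 Mb, to 61 in the first Mb, with a median of 40. The next fullest bins were those starting at 4000001 and 15000001, with 53 peaks each, followed by 52 from 1000001 and 49 each from 5000001 and 11000001. The emptiest after the lowest were those starting at 3000001 with 31, at 2000001 with 32, at 8000001 with 33 and at 7000001 with 37. On the autosomes the bins ran from 19 peaks on V to 100 on IV. The range on X was thus narrower than over all 80 autosomal bins, though X contributed only 17 bins.

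Covered length followed another order. The bin from 4000001 to 5000000 had 48.0 kb inside peaks, 13 broad peaks and the highest median score of the X bins, 198. Without the run of 14 peaks it would have had 18.3 kb, 3 broad peaks and 39 peaks in all. The first Mb came next with 32.4 kb, although only 3 of its 61 peaks were broad. The bin from 8000001 to 9000000 had the least, 13.0 kb, with 1 broad peak among 33. When each chromosome was cut into 10 equal segments, the sixth of X had 28.8 peaks per Mb, below every autosomal segment, of which the lowest was 32.1 on V. This segment was picked as the lowest of the 10 on X. It held 6.62% of the peaks of X, while the fifth of III held 6.21% of the peaks of III and the sixth of IV 6.62% of those of IV. The fifth of X had 1.50% inside peaks, where the lowest autosomal segment, on V, had 1.37%. The third, which holds the run of 14, reached 3.93%, against 5.48% for the highest on III.

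**Figure D4:**
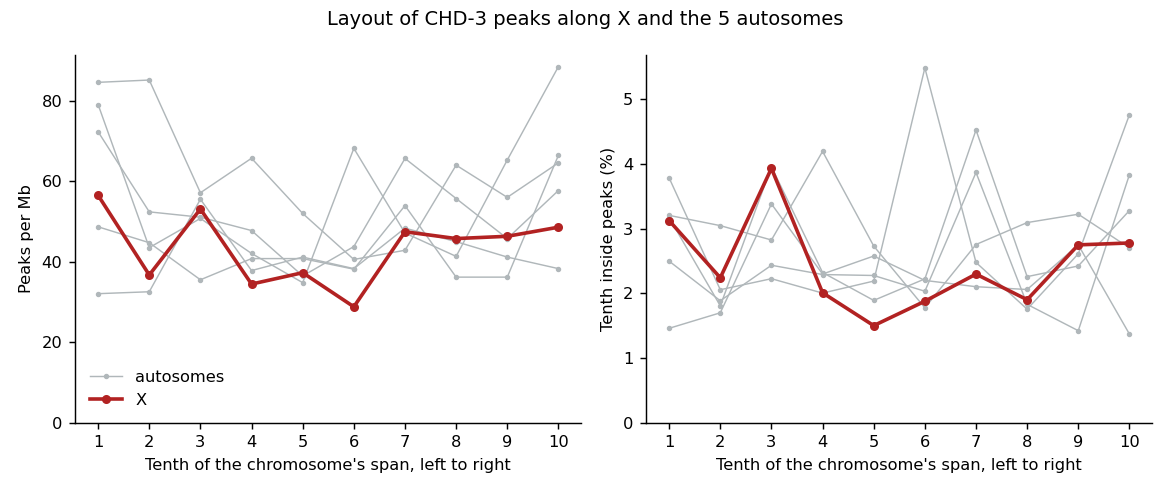
Peaks per Mb (left) and percent of sequence inside peaks (right) in 10 equal segments of each chromosome's span from left to right, X in red and the 5 autosomes in grey. X is lowest in its sixth segment in number, at 28.8 peaks per Mb, and in the fifth in covered percent, at 1.50%, and the third segment stands highest in covered percent, at 3.93%.

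In 3 equal parts of 5.90 Mb, the left part of X held 271 peaks or 35.2% (31.8 to 38.7%), the central part 223 or 29.0% (25.8 to 32.3%) and the right part 276 or 35.8% (32.5 to 39.3%). On the autosomes the central part held from 28.4% of peaks on IV to 33.98% on II. Fewer peaks in the centre of X did not mean wider spacing everywhere, since the median gap there was 3826.5 bp against 6082 bp on the left and 7192.5 bp on the right. In the centre 50.7% of peaks were in runs, against 41.3% on the left and 38.8% on the right. Broad peaks were 13.3% of the left part (9.48 to 17.9%), 8.52% of the centre (5.21 to 12.99%) and 9.78% of the right (6.55 to 13.9%). Of the 36 broad peaks on the left, 10 lay in the run of 14 peaks, and the share was not recomputed without that run. The median score was 132 on the left, 114 in the centre and 109 on the right. The first 50% of the span held 386 peaks, or 50.1% (46.5 to 53.7%), so the number was even between the sides of the midpoint.

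Much of X lay in long stretches without a peak. The 33 gaps of at least 100 kb added up to 4.57 Mb, or 25.9% of the span, and the 126 of at least 50 kb to 11.1 Mb, or 63.02%. The latter share was 63.97% on V, 61.3% on II and 43.8 to 49.1% on I, III and IV, so the 3 chromosomes with the fewest peaks per Mb had the 3 highest shares. When the limit was set at 3 times each chromosome's mean spacing, 22.98 kb on X, the share of X was 48.1% against 40.1 to 49.1% on the autosomes. The longest gap of X, 210.9 kb, was 9.18 times its mean spacing. On the autosomes the longest gap ran from 180.0 kb on IV to 272.3 kb on II and from 10.8 to 13.97 mean spacings, so for its density X had the shortest maximum of the 6. That measure was looked at after its values were known.

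**Figure D5:**
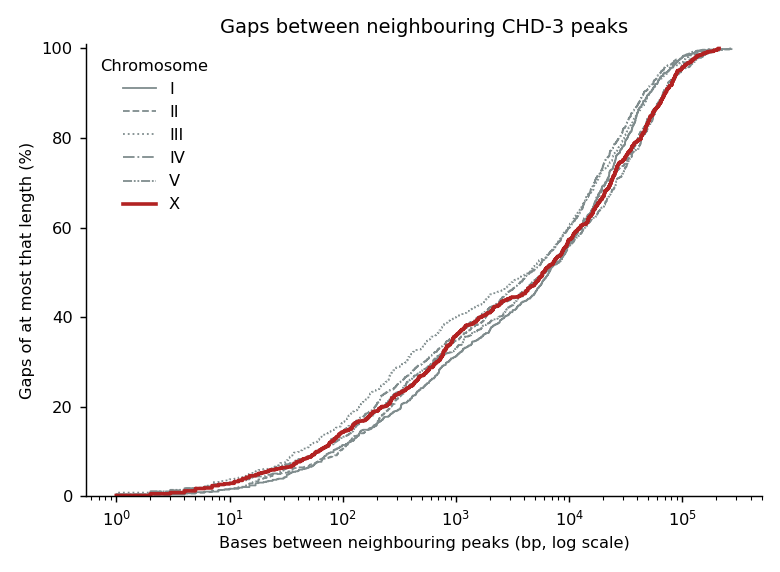
Cumulative percent of gaps between neighbouring peaks up to each length in bp, on a log axis, for X (red) and the 5 autosomes (grey, 1 line style each). The curve of X runs among the autosomal curves over the whole range, with a median gap of 5981 bp and a longest gap of 210.9 kb.

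More of the long gaps lay in the centre of X than in its outer parts. Of the 33 gaps of at least 100 kb 18 lay in the central part, 10 in the left and 5 in the right, and of the 10 longest 6 were central. The central part held 8 of 15 on I, 7 of 24 on II, 9 of 23 on III, 11 of 23 on IV and 16 of 41 on V. The longest gap ran from 7449941 to 7660813, and those after it from 10771344 to 10974137 (202.8 kb), 2599164 to 2800829 (201.7 kb), 11036270 to 11227694 (191.4 kb) and 6829584 to 7017195 (187.6 kb). The others of the 10 longest began at 6378635, 3370829, 7661784, 15870869 and 5542433 and measured 153.4 to 172.7 kb. Of the 176 whole windows of 100 kb on X, 15 held no peak, or 8.52% (4.85 to 13.7%), against 2.92% on III and 9.62% on V. All 15 lay between 2100001 and 16000000, so none touched the first 2.1 Mb. Only 1 pair of empty windows was adjacent, at 2600001 to 2800000, inside the third longest gap.

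The fullest window of X lay near its longest gap. From 7300001 to 7400000 there were 18 peaks, the most of any X window, against 17 in the fullest of II and 35 in the fullest of V. These peaks were weak and narrow, their median width being 236.5 bp and their median score 64.8, and they covered 5.33 kb, with 14 of the 18 in runs. After 2 more peaks the longest gap and another long one made up a stretch from 7449941 to 7822837 of 372.9 kb with only 2 peaks, 349 and 280 bp wide, scored 118 and 88.8. The peak that ended it, from 7822838 to 7823345, was the most isolated on X, with 161.05 kb to its left and 128 kb to its right.

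The next fullest windows showed how little the number of peaks says about covered length. The window from 4000001 to 4100000 had 16 peaks that covered 30.7 kb, with a median score of 1028, because it holds the run of 14. The window from 11400001 to 11500000 also had 16 peaks, which covered 9.49 kb, and those from 12500001 and 5200001 had 15 each, covering 6.46 and 5.08 kb. The windows with most covered length after the first were 16900001 to 17000000, with 13.1 kb in 9 peaks, and 5000001 to 5100000, with 10.4 kb in 11. The former holds a pair of adjoining peaks of 6281 and 4076 bp, both scored 3100. The variance of window counts over their mean was 3.07 on X, against 2.04 on I and 4.32 on III, so X was neither the most even nor the most uneven chromosome.

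The 157 X peaks with no neighbour within 10 kb, 20.4% of the chromosome's peaks, were 303 bp wide and scored 110.7 at the median, and 9 of them, or 5.73%, were broad, where all X peaks had a median of 348 bp and 10.6% were broad. On the autosomes 18.9% of peaks were as isolated, with medians of 302 bp and 107.4, and 8.49% of them were broad. For single autosomes that broad share ran from 5.67% on III to 10.2% on V, so X lay inside their range. Among the 5 most isolated, besides those already given, were 12966916 to 12967076 (161 bp, score 52.2), 3262227 to 3262621 (395 bp, score 153) and 3536337 to 3536526 (190 bp, score 60.5). Isolated peaks therefore ran from near the lowest listed score, 50, to the tied top value.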

How the data were processed

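The file analysed holds the peaks of the ChIP sample. Its header and source column name WormBase WS220 and MACS, and the submitters' processing notes name BWA and build ce10. Versions, threshold, control and pooling are not given in the sources. The peak score, as deposited, comes on an unnamed scale, with a lowest value of 50 and ties at 3100. Sequencing depth is unknown, so no value has a counting interval from reads. Coordinates are on WS220 and count from 1. The available gene table is of another assembly, WBcel235, so no peak was given a gene or a sequence, and chromosome lengths were not used.

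Runs, gaps, windows and shares were computed in Python 3.11.15 with pandas 2.3.3 and SciPy 1.17.1, after a check on simulated layouts. Windows were counted by peak midpoints, and the last incomplete one was left out. Shares have 95% Clopper-Pearson intervals. No test was made, since peaks of 1 list are not replicates. Regions named were the 10 X peaks highest in score and the 10 widest, the 10 largest runs, the 10 longest gaps, the fullest and emptiest bins and windows, and others said to be chosen after their values were seen. Members, measures and regions were chosen with earlier results of these data known.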

Additional observations from a re-analysis of the deposited data

How the results depend on the processing

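No paired analysis was possible because the ChIP and input groups have 1 sample each and only the ChIP peak list was analysed. The shares on X were recomputed under 35 alternatives, of which 11 were chosen after seeing the data. In 21 of the 35 the share stayed inside its own 95% interval, and in 28 X stayed inside the range of the 5 autosomes. Most of the larger moves follow from the definition that was changed. X held 19.9% of peaks without chromosome IV, where its span was 21.4%. Broad peaks were 30.3% from 500 bp, 3.51% from 2000 bp, 21.1% among the 50% with the highest scores, 19.7% after merging peaks less than 500 bp apart and 7.79% without those scored 3100 or more. Peaks in runs were 31.7% with gaps under 200 bp and 55.5% with gaps under 1000 bp. The highest 10% of scores held 10.6% of X peaks. Windows without a peak were 29.2% at 50 kb, 1.14% at 200 kb and 23.3% with the 50% highest scores. Peaks scored 1000 or more were 7.40%, and 54.9% of broad peaks were in runs with gaps under 200 bp. X left the autosomal range for peaks of 2000 bp or more (autosomes up to 2.98%), for runs among the 50% highest scores, for the first 50% of the span among them (53.61% against at most 53.55%), for peaks scored 3100 or more after merging (3.91% against at most 3.31%), and for broad peaks in runs with gaps under 1000 bp, from 2000 bp width, or without the run of most peaks on each chromosome. The run of 14 peaks, in the first 50% of the span, enters the values for peaks of 2000 bp or more. It also enters those for the 50% highest scores, and none of these was recomputed without it. Depth could not be examined.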
